A study of Homo sapiens with 5 samples.

Results

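RNA polymerase subunit genes were taken as the protein-coding genes of the count table whose symbol starts with POLR1, POLR2, or POLR3 followed by a letter. There are 33 such genes among 27328 genes in the table, of which 14875 are protein-coding, and pseudogenes were left out. They comprise 5 genes for subunits common to the 3 nuclear enzymes (Pol I, II, and III), 2 for subunits shared by Pol I and Pol III, 6 specific to Pol I, 9 to Pol II, and 10 to Pol III, and *POLR2M*, whose product associates with Pol II. *POLR2J3* stands for 2 of the 33, since 2 overlapping Ensembl genes carry that symbol. *POLR2J2*, another copy of *POLR2J*, is not in the count table.

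The 3 enzymes divide the genome between them. RNA polymerase I (Pol I) makes the large ribosomal RNA precursor, Pol II makes messenger RNA, and Pol III makes transfer RNA, 5S ribosomal RNA, and other small RNAs. Each enzyme is built around its own pair of large subunits that form the active center, while a set of small subunits is common to all of them and a further pair, encoded by *POLR1C* and *POLR1D*, is used by both Pol I and Pol III. Growing leukemic cells depend on these enzymes for ribosomes, transfer RNA, and mRNA alike.

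The samples were pools of TF-1 cells, a human AML line that depends on a growth factor. All cells carried a lentiviral vector with *Cas9*, *GFP*, and an sgRNA, and each library came from 4 pooled single-cell clones. The 2 control pools, sgCtrl pools 1 and 2, carried the sgRNA against *Renilla luciferase*, and the 3 *MTSS1* knockout pools each carried a different sgRNA (sgMTSS1_1, sgMTSS1_2, or sgMTSS1_3) and were grown from clones chosen for loss of the protein on immunoblots. A knockout replicate thus differs from the next in its sgRNA and in its clones, and the authors left out a further pool of each group after an outlier test.

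Total counts were 2849979 and 3408827 in the control libraries and between 5442639 and 8854899 in the knockout libraries. Depth therefore differed with condition. Mitochondrially encoded genes took 13.9% and 8.63% of the counts in the control and 6.71% to 7.44% in the knockout libraries. Ribosomal protein genes took 7.55% and 9.30% in controls, against 17.7%, 11.9%, and 13.9% in knockouts, so that the groups did not overlap in this share. The sgMTSS1_1 pool, at 17.7%, was also the deepest library and had the lowest TMM factor (0.876). The mRNA of the targeted gene *MTSS1* was at 204 and 87.9 CPM (counts scaled by library size and TMM normalization) in the control pools and at 104, 139, and 49.9 CPM in the knockout pools, with a log2-fold change of −0.58 ± 0.47 (SE, adjusted p = 0.494). Its level does not separate the groups and so does not check the labels. Without control pool 1, the log2-fold change of *MTSS1* was 0.16. Of 10 markers of TF-1 cells, including *CD34*, *CD33*, *KIT*, and *GATA1*, none was differentially expressed, and their summed level was 800.4 to 939 CPM in control and 824 to 1070 CPM in knockout pools. Among the 10, *EPOR* (2.89 to 7.66 CPM) and *CSF2RA* (4.87 to 6.57 CPM) stayed under 10 CPM in every library. The summed level of the 3 T-cell markers in the table was 0.313 to 2.09 CPM in control and 0.722 to 5.92 CPM in knockout pools, that of 2 B-cell markers 7.82 to 11.6 and 3.24 to 4.15 CPM, and that of 3 monocyte markers 1.25 to 1.49 and 0.542 to 1.69 CPM, with no marker of these lists above 10 CPM in any library. Of 4 epithelial markers, *EPCAM* and *CDH1* stayed under 10 CPM and *KRT8* and *KRT18* did not, with a summed level of 65.7 to 136 CPM in control and 146 to 159 CPM in knockout pools. The part of depth, the mitochondrial and ribosomal protein shares, and *KRT18* in the results was not tested, except where values with thinned libraries are given.

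In the knockout, 5 subunit genes rose and none fell. These were *POLR2A*, which encodes the largest, catalytic subunit of Pol II, *POLR2C*, which encodes a subunit of the Pol II assembly platform, *POLR1C*, its counterpart in Pol I and Pol III, *POLR2H*, a subunit common to all 3 enzymes, and *POLR3K*, a small zinc-binding subunit of Pol III that takes part in RNA cleavage and termination. The other subunits of the same enzymes did not pass the test, including every partner of *POLR2A* except *POLR2C* and *POLR2H*. Adjusted p-values come from the quasi-likelihood test of edgeR unless another tool is named. Genes were called differentially expressed at a Benjamini-Hochberg adjusted p-value under 0.05 over all 14391 tested genes and an absolute log2-fold change over 1. Of the 33 genes, 31 passed the filter on low counts and were tested. The 5 that rose stand against 4.17% of all tested genes that were called higher, and the 0 that fell against 1.01% called lower. At an unadjusted p-value under 0.05 in edgeR, 8 subunit genes were higher (14.1% of all tested genes) and 1, *POLR2L*, was lower (9.23%). DESeq2, the tool the authors used, called 6 subunit genes higher, where 7.08% of all genes were called, and 0 lower, where 2.35% were. The gene it added was *POLR2F*.

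Of the 5 genes, *POLR2C*, *POLR1C*, *POLR2H*, and *POLR3K* were highest in the sgMTSS1_1 pool, the one with the highest ribosomal protein share, as was *POLR2F*, whereas *POLR2A* was lowest there among the knockout pools. The number of subunit genes called higher depended on single libraries, as did that of all tested genes. Without the sgMTSS1_1 pool it was 1, where 107 of all 13358 tested genes were called higher. It was 2 without the sgMTSS1_2 pool (323 of 13419) and 0 without the sgMTSS1_3 pool (183 of 13303). With all 5 libraries, 600 of 14391 tested genes were called higher. No subunit gene was called lower under any setting that kept both control pools. With libraries thinned to the smallest total, 4 subunit genes were called, where 583 of all 12469 tested genes were called higher. With GC and length offsets 3 were (562 of 14391), *POLR2A*, *POLR3K*, and *POLR1C*.

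To show where these genes start, the 250 bases before the RefSeq start site of each of the 5 genes (GRCh38.p14, 5′ to 3′ on the strand of the gene) are printed here, with GC boxes (GGGCGG) and ETS sites (CCGGAAG), read on both strands, in capitals.
POLR2A, chr17:7484116-7484365, plus strand: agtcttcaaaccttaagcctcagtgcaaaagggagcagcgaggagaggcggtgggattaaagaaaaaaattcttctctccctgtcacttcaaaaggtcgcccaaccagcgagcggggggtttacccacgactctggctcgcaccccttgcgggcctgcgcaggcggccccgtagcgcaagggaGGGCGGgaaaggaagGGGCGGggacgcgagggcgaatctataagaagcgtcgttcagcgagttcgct
POLR2C, chr16:57462429-57462678, plus strand: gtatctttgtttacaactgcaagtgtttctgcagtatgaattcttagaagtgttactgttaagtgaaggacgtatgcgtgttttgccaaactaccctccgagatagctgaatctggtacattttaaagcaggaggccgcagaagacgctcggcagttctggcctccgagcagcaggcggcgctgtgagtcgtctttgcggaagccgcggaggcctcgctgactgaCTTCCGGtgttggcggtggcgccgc
POLR2H, chr3:184361460-184361709, plus strand: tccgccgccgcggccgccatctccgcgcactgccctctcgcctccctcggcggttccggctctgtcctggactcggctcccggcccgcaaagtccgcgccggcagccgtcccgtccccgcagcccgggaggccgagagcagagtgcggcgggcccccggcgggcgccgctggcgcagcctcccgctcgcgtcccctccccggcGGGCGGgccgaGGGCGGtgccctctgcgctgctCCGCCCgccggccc
POLR1C, chr6:43516839-43517088, plus strand: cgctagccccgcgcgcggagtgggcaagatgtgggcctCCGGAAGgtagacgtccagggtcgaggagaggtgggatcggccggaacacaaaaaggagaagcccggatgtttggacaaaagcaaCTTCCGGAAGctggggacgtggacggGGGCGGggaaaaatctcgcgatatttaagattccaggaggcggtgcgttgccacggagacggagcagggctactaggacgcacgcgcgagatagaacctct
POLR3K, chr16:53609-53858, minus strand: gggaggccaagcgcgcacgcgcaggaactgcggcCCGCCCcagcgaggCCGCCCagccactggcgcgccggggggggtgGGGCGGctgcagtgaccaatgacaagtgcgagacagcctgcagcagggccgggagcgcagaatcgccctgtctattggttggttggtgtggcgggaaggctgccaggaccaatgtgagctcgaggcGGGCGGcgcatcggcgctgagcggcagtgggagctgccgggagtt

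In *POLR1C* a pair of ETS sites lies on opposite strands of the same stretch, and its window belongs to a start site inside the Ensembl gene. GC boxes stood in the windows of *POLR2A* (2), *POLR2H* (3), *POLR1C* (1), and *POLR3K* (4) and not in that of *POLR2C*, and ETS sites in those of *POLR1C* (3) and *POLR2C* (1). Of the 32 symbols, 23 had a window. A GC box was found in 15 of these (65.2%) and in 42.6% of all 35116 windows of the same length. An ETS site was found in 6 (26.1%, against 8.52% of all windows), an NRF1 site (GCGCNTGCGC) in 4 (17.4% against 5.07%), an E-box (CACGTG) in 3 (13.0% against 6.34%), and a TATA box (TATAAA) in 1 (4.35% against 10.7%). The window of *POLR3K* holds the NRF1 letters, and none of the 5 windows holds an E-box or a TATA box. Such matches describe the letters and not the binding of a factor. The subunit genes gave 1 window each, while the 35116 windows were not limited to 1 per gene or to genes tested here. The shares are therefore of unlike sets.

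**Figure D1:**
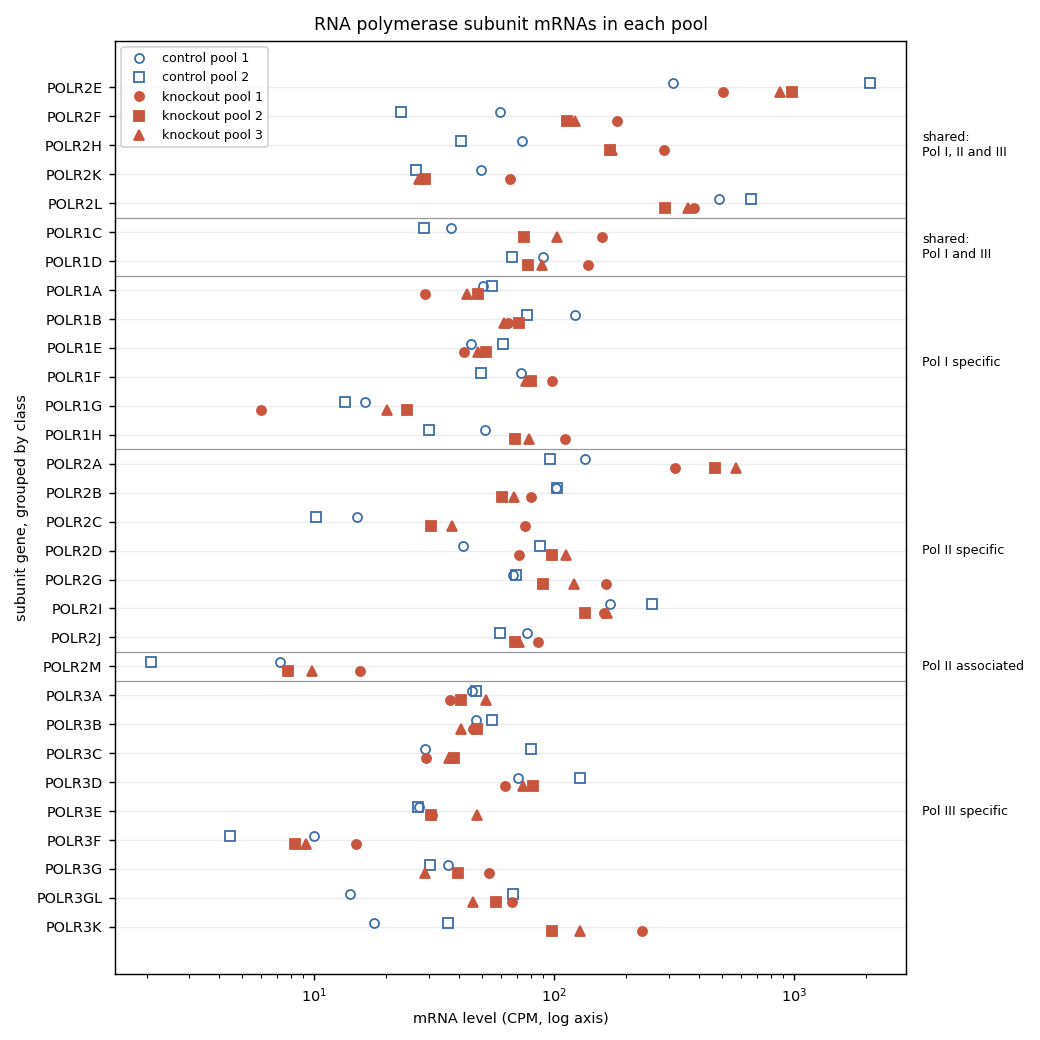
mRNA levels (CPM, logarithmic x axis) of 30 of the 31 tested subunit genes in each pool, with open blue symbols for the 2 control and filled red symbols for the 3 knockout pools. For *POLR3K* the highest control pool (36.1 CPM) lies well below the lowest knockout pool (98.4 CPM), whereas the control pools of *POLR2E* lie at 313 and 2084 CPM, on either side of all knockout pools.

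The largest subunits carry the catalytic site together with the second largest ones. *POLR2A* (ENSG00000181222, GRCh38 chromosome 17, 7484366 to 7514616, plus strand) was at 135 and 96.3 CPM in control pools 1 and 2 and at 318, 467, and 575 CPM in knockout pools 1, 2, and 3 (numbered by sgRNA). All knockout pools lay above both control pools. Control pools averaged 116 ± 27.2 CPM (SD, n = 2) and knockout pools 453 ± 129 CPM (SD, n = 3), which gave a log2-fold change of 1.97 ± 0.38 (SE, adjusted p = 0.0220). No annotated gene overlaps *POLR2A*. Its counterparts in Pol I and Pol III did not pass the test. *POLR1A* was at 50.3 and 54.8 CPM in control and 28.9, 48.0, and 43.3 CPM in knockout pools (log2-fold change −0.39). *POLR3A* was at 45.6 and 47.4 CPM in control and 36.7, 41.0, and 51.8 CPM in knockout pools (−0.11), and the groups overlapped.

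None of the second largest subunits passed the test. *POLR2B*, the partner of *POLR2A*, was at 102 and 103 CPM in control pools and at 80.4, 60.5, and 68.0 CPM in knockout pools, with a log2-fold change of −0.56 (adjusted p = 0.269). All knockout pools were thus below both control pools while those of *POLR2A* were above. *POLR1B* was at 122 and 77.2 CPM in control and at 64.3, 71.5, and 61.8 CPM in knockout pools (log2-fold change −0.59, adjusted p = 0.275). *POLR3B* was at 47.2 and 55.1 against 45.8, 47.7, and 41.1 CPM, and its groups overlapped. Within a library, the log2 ratio of the CPM of *POLR2A* to that of *POLR2B* was 0.40 and −0.10 in controls, against 1.99, 2.95, and 3.08 in knockouts, a difference between group means of 2.52. This ratio was chosen after its values were seen. An exact permutation test over the 10 splits gave p = 0.2, with the two-sided p taken as 2 times the one-sided p. In that form 2 against 3 pools cannot give a smaller value.

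The assembly platform of each enzyme is a heterodimer of a larger and a smaller subunit related to the bacterial alpha subunit. The larger ones rose in the knockout. *POLR2C* (ENSG00000102978, chromosome 16, 57462660 to 57472009, plus strand) was at 15.0 and 10.1 CPM in control and at 75.6, 30.7, and 37.6 CPM in knockout pools, and the groups did not overlap. Its log2-fold change was 1.93 ± 0.46 (SE, adjusted p = 0.0447). The gene has 1 processed pseudogene named after it, and its 3′ end overlaps that of *DOK4* on the opposite strand, which was at 1.56 to 5.58 CPM in all pools. *POLR2C* also overlaps ENSG00000260345 on the same strand, whose level is not reported here. *POLR1C* (ENSG00000171453, chromosome 6, 43509702 to 43562419, plus strand) was at 37.2 and 28.6 CPM in control and at 159, 75.1, and 103 CPM in knockout pools, again without overlap. Its log2-fold change was 1.77 ± 0.39 (SE, adjusted p = 0.0346). Some *POLR1C* transcripts run into *XPO5* and *YIPF3* on the opposite strand, neither of which was differentially expressed. *XPO5* was at 87.5 and 110 CPM in control and at 118, 150, and 156 CPM in knockout pools. Every knockout pool of *XPO5* was thus higher (log2-fold change 0.52), while the groups of *YIPF3* overlapped. Since the use of strand is not given, some *POLR1C* counts may belong to these 2 genes. On the same strand *POLR1C* overlaps ENSG00000252218, whose level is not reported here.

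The smaller partners did not pass the test. *POLR1D*, the partner of *POLR1C*, was at 90.0 and 67.1 CPM in control and at 138, 77.6, and 88.9 CPM in knockout pools (log2-fold change 0.37). *POLR2J*, the partner of *POLR2C*, was at 76.9 and 59.6 against 85.9, 68.8, and 71.3 CPM (0.14). The groups overlapped for both genes. The log2 ratio of *POLR1C* to *POLR1D*, chosen after its values were seen, was −1.28 and −1.23 in controls, against 0.20, −0.05, and 0.21 in knockouts, with the same exact permutation p of 0.2. The 2 *POLR2J3* genes were not tested, with 0 to 8 counts in any library. Reads that fit more than 1 place were removed by the authors, which lowers the counts of such near-identical copies.

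**Figure D2:**
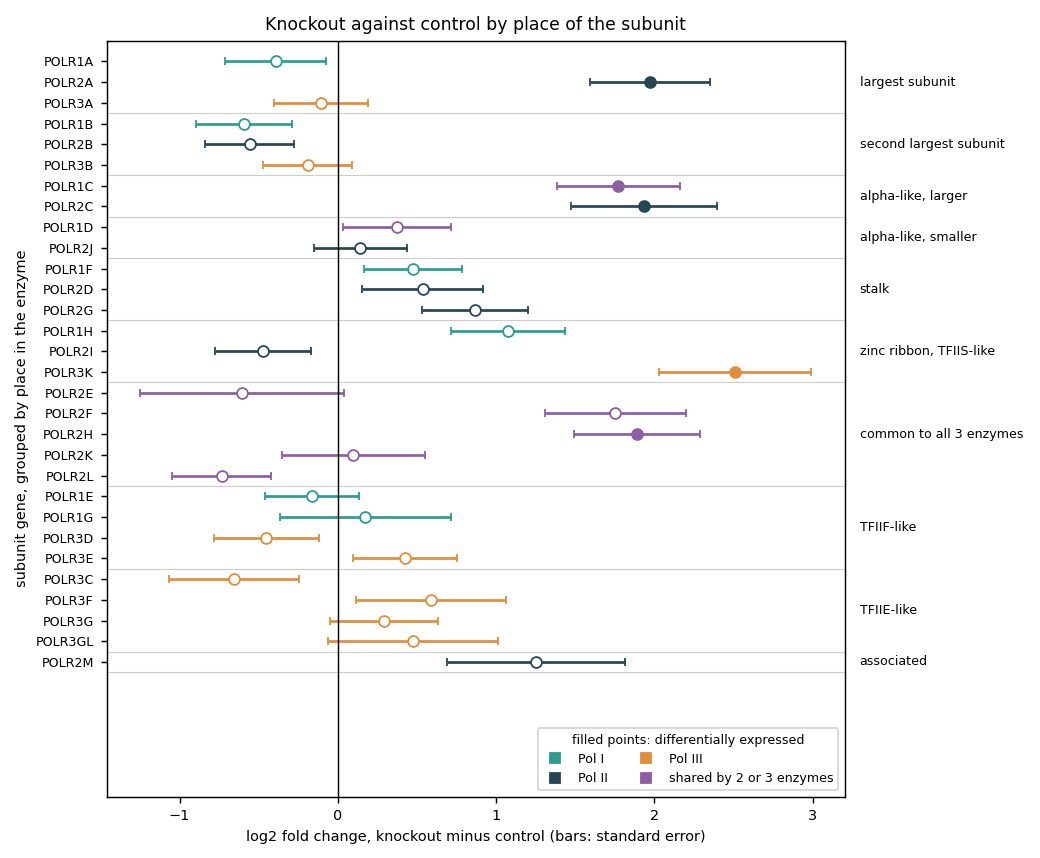
Log2-fold change (x axis, knockout minus control, bars show the standard error) of 30 of the 31 tested subunit genes, grouped by the place of the subunit in the enzyme and coloured by enzyme. Filled points mark the 5 differentially expressed genes, which fall in 4 of the 10 places, and for *POLR2A* (1.97) and *POLR3K* (2.51) no counterpart of the same place passed the test.

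Each enzyme has a small zinc-ribbon subunit related to the elongation factor TFIIS. In Pol III this is *POLR3K* (ENSG00000161980, chromosome 16, 46407 to 53608, minus strand), which had the largest log2-fold change of the 31 genes. It was at 17.8 and 36.1 CPM in control and at 233, 98.4, and 129 CPM in knockout pools, or 26.9 ± 12.9 CPM (SD, n = 2) against 153 ± 70.8 CPM (SD, n = 3). The groups did not overlap. Its log2-fold change was 2.51 ± 0.48 (SE, adjusted p = 0.0223), and *POLR3K* has 2 processed pseudogenes named after it. *POLR1H*, the Pol I counterpart, was at 51.6 and 30.1 CPM in control and 111, 69.0, and 78.5 CPM in knockout pools. Every knockout pool was higher, but with a log2-fold change of 1.08 and an adjusted p of 0.114 it was not called. Without control pool 1 it was (log2-fold change 1.53, adjusted p = 0.0470). *POLR2I*, the Pol II counterpart, was at 171 and 257 CPM in control and 161, 134, and 167 CPM in knockout pools (log2-fold change −0.47, adjusted p = 0.387). It overlaps *TBCB* and *OVOL3* on the opposite strand. The log2 ratio of *POLR3K* to *POLR2I*, also chosen after the values were seen, was −3.27 and −2.83 in controls, against 0.54, −0.45, and −0.37 in knockouts (exact permutation p = 0.2, the smallest possible in the form of the test used here).

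Of the 5 subunits common to all 3 enzymes, 1 rose and 0 fell, where 4.17% of all tested genes were called higher and 1.01% lower. *POLR2H* (ENSG00000163882, chromosome 3, 184361710 to 184368596, plus strand) was at 73.2 and 40.8 CPM in control and at 288, 172, and 175 CPM in knockout pools. The groups did not overlap, and the log2-fold change was 1.89 ± 0.40 (SE, adjusted p = 0.0294). No annotated gene overlaps it. With GC and length offsets, the adjusted p of *POLR2H* was 0.0507. *POLR2F* was at 59.7 and 22.9 CPM in control and at 183, 113, and 122 CPM in knockout pools. All knockout pools were higher, with a log2-fold change of 1.75, yet the adjusted p was 0.0532, and it lay between 0.00139 and 0.160 under the alternatives.

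*POLR2L* encodes a small common subunit. It was at 486 and 659 CPM in control and at 382, 289, and 362 CPM in knockout pools, so that every knockout pool was lower (log2-fold change −0.73, adjusted p = 0.196). At its 3′ end it overlaps *CD151* on the opposite strand, which fell in the knockout (208 and 139 CPM against 64.1, 71.1, and 84.0 CPM, log2-fold change −1.25, adjusted p = 0.0457). *POLR2K* was at 49.4 and 26.5 against 65.4, 28.9, and 27.3 CPM (log2-fold change 0.10), and the groups overlapped. It has 2 processed pseudogenes.

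*POLR2E* was the subunit gene with the widest spread in control pools, at 313 and 2084 CPM, a 6.66-fold difference. The knockout pools, at 504, 985, and 875 CPM, lay between them. Its log2-fold change of −0.60 (standard error 0.64) became −1.39 without control pool 1 and 1.36 without control pool 2, so no direction can be given. The 3′ end of *POLR2E* overlaps *ARHGAP45* on the opposite strand. *ARHGAP45* had 6 and 3 counts in control and 315, 263, and 300 counts in knockout pools (log2-fold change 5.06, adjusted p = 0.00457). Whether reads of one gene were counted for the other was not tested.

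The stalk subunits reach out to the emerging RNA and to initiation factors. None of those described here passed the test. For *POLR2G* the values were 67.5 and 69.4 CPM in control and 164, 89.7, and 121 CPM in knockout pools (log2-fold change 0.87, adjusted p = 0.158). For *POLR1F* they were 72.5 and 49.5 against 98.2, 80.0, and 76.2 CPM (0.48). In both genes every knockout pool lay above both control pools, whereas the groups of *POLR2D* overlapped (41.6 and 87.6 against 71.3, 97.7, and 112 CPM).

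Pol I and Pol III carry built-in counterparts of the Pol II initiation factors TFIIF and TFIIE. Among the TFIIF-like subunits, *POLR1E* (log2-fold change −0.16), *POLR1G* (0.17), and *POLR3D* (−0.45) had overlapping groups, and *POLR3E* was at 27.2 and 27.1 CPM in control and 30.9, 30.7, and 47.8 CPM in knockout pools (0.42). *POLR1G* was lowest in the sgMTSS1_1 pool, at 5.97 CPM, with the other knockout pools at 24.4 and 20.2 CPM and the control pools at 16.3 and 13.4 CPM. It overlaps *ERCC1* on the opposite strand. The TFIIE-like subunits of Pol III were *POLR3C* (−0.66), *POLR3F* (0.59), and *POLR3G* and *POLR3GL* (0.29 and 0.47), paralogs of which 1 is built into each Pol III.

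The control pools themselves set the result for 2 of these. *POLR3GL* was at 14.1 and 67.3 CPM in control and 66.8, 57.0, and 45.8 CPM in knockout pools, and it was called higher without control pool 2 (log2-fold change 2.03, adjusted p = 0.0238) but had a log2-fold change of −0.24 without control pool 1. *POLR3C* was at 29.1 and 79.9 CPM in control and 29.2, 38.1, and 36.5 CPM in knockout pools, and it was called lower without control pool 1 (−1.20, adjusted p = 0.0436) but had a log2-fold change of 0.28 without control pool 2. *POLR3G* was at 36.3 and 30.4 CPM in control and 53.4, 39.7, and 29.1 CPM in knockout pools. *POLR2M*, with low counts, was at 7.19 and 2.09 against 15.4, 7.76, and 9.74 CPM (log2-fold change 1.25, adjusted p = 0.217), with all knockout pools higher. Of the 31 tested subunit genes, 8 (25.8%) differed more than 2-fold between the control pools, as did 29.2% of all tested genes.

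Shared and enzyme-specific subunits were compared by counts and medians, without a test. Of the 7 tested genes for subunits shared by 2 or 3 enzymes, 2 rose, and their median log2-fold change was 0.37 (range −0.73 to 1.89). Of the 23 tested genes specific to 1 enzyme, 3 rose, with a median of 0.29 (range −0.66 to 2.51). The median was 0.37 over all 31 subunit genes and −0.03 over all tested genes. By class, it was 0.10 for the subunits common to all 3 enzymes, 1.07 for the pair shared by Pol I and Pol III, 0.01 for Pol I, 0.53 for Pol II, and 0.36 for Pol III. None of the 6 Pol I-specific genes was called, against 2 of 7 for Pol II and 1 of 10 for Pol III. Over all tested genes 4.17% were called higher, and the classes are too small for these counts to tell them apart. The median of the subunits common to all enzymes was −0.38 without knockout pool 1 and 1.25 without control pool 2. That of the Pol I genes was between −0.37 and 0.16 over all settings, so its sign is not fixed. In the knockout, 12 of the 31 genes had every pool above both control pools, where 22.2% of all tested genes did, and 5 had every pool below, where 19.2% did. In bulk samples, a change in the share of cells that express a gene and a change in mRNA per cell cannot be told apart.

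Other genes of the transcription machinery were counted in the same way, from lists of their roles. Of 23 tested initiation factor genes of Pol I and Pol III, 2 rose and 0 fell, where 4.17% of all tested genes were called higher and 1.01% lower. Their median log2-fold change was −0.15. *RRN3*, which recruits Pol I to ribosomal DNA, was at 31.0 and 27.4 CPM in control and 156, 76.7, and 94.6 CPM in knockout pools (log2-fold change 1.90 ± 0.38 SE, adjusted p = 0.0255). Over the alternatives, the adjusted p of *RRN3* lay between 0.000247 and 0.0711. The gene overlaps *PDXDC1* on the opposite strand and has 5 gene entries named as its pseudogenes, so its count is uncertain. *TAF1C*, a subunit of the Pol I selectivity factor, had 3 and 10 counts in control and 66, 45, and 74 counts in knockout libraries. It thus passed the filter on low counts through the knockout libraries. *TAF1C* was at 0.938 and 2.98 CPM in control and 8.56, 8.12, and 12.9 CPM in knockout pools (log2-fold change 2.30 ± 0.57 SE, adjusted p = 0.0486). In control pool 1 this rests on 3 counts, and *TAF1C* was not called in limma-voom (adjusted p = 0.0746 from limma), with values between 0.00819 and 0.157 over all alternatives.

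None of the 28 tested genes of Pol II general transcription factors was called (median 0.02), nor of 22 genes for pausing, elongation, and phosphatases of the Pol II tail (0.04) or of 15 assembly factors of the enzymes (0.06). Over all tested genes 4.17% were called higher and 1.01% lower. At an unadjusted p-value under 0.05 in edgeR, 4 of the 28, 3 of the 22, and 2 of the 15 were higher, where 14.1% of all tested genes were, and 5, 1, and 0 lower, where 9.23% were. DESeq2 called 2, 0, and 1 genes of these lists, and of all tested genes 7.08% higher and 2.35% lower. It also called 2 more initiation factors, named here after their values were seen. *MAF1*, the repressor of Pol III, was at 163 and 122 CPM in control and 52.8, 74.4, and 71.3 CPM in knockout pools (log2-fold change −1.11, adjusted p = 0.0631). *SNAPC5*, part of the factor for small nuclear RNA genes, was at 8.75 and 6.85 against 22.1, 19.0, and 17.1 CPM (1.31, adjusted p = 0.0651). *CRCP*, the Pol III stalk subunit whose symbol lies outside the rule, had a log2-fold change of −0.35.

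**Figure D3:**
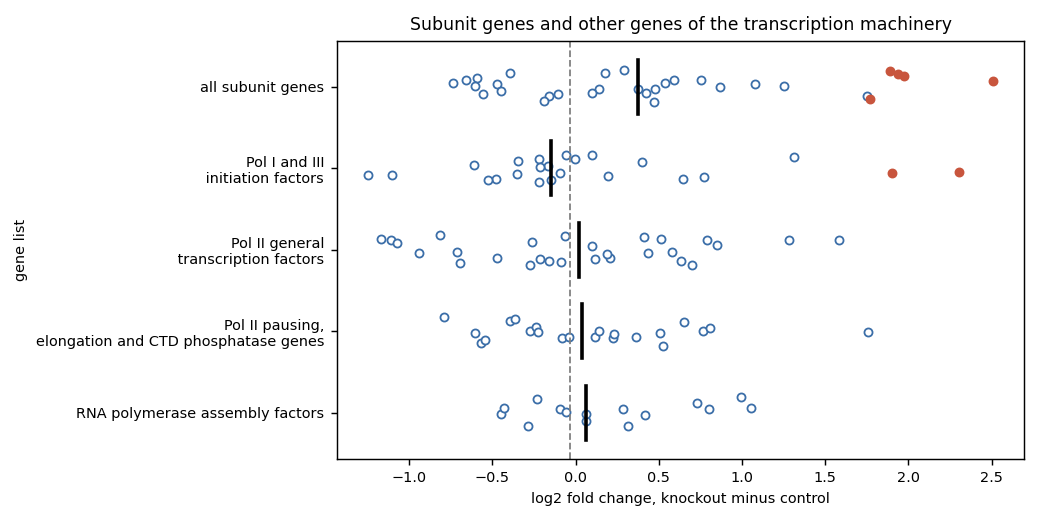
Log2-fold change (x axis, knockout minus control) of each tested subunit gene and of each tested gene in 4 lists of other transcription machinery, with vertical bars at the medians and a dashed line at the median of all tested genes (−0.03). Red points are differentially expressed genes, 5 among the subunits and 2 among the initiation factors of Pol I and Pol III, while the medians of the other lists lie between 0.02 and 0.06.

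The 5 genes that rose, and *POLR2F*, had a log2-fold change above 1 under each setting tried. For *POLR3K* the values lay between 2.06 and 3.13, for *POLR2A* between 1.76 and 2.25, for *POLR2H* between 1.56 and 2.38, for *POLR1C* between 1.43 and 2.04, for *POLR2C* between 1.43 and 2.26, and for *POLR2F* between 1.25 and 2.61. The adjusted p moved across 0.05 for each. Over the alternatives, its highest value was 0.0746 for *POLR3K*, 0.0735 for *POLR2A*, 0.0922 for *POLR2H*, 0.0957 for *POLR1C*, and 0.111 for *POLR2C*, in edgeR's quasi-likelihood test with a knockout pool left out.

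**Figure D4:**
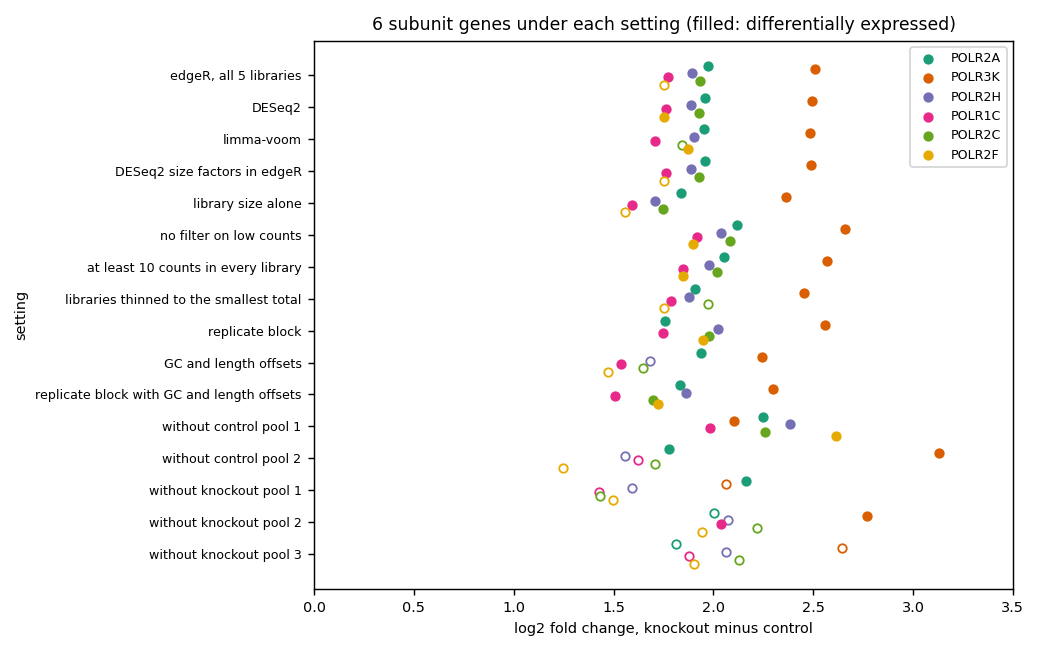
Log2-fold change (x axis, knockout minus control) of the 5 differentially expressed subunit genes and of *POLR2F* under each setting (y axis), with filled points where the gene was differentially expressed. All points lie above 1, and the open points gather where a library was left out, with none of the 6 genes called without knockout pool 3.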

How the data were processed

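RNA-seq was performed on 2 control and 3 *MTSS1* knockout pools of TF-1 cells. The authors prepared QuantSeq 3′ mRNA libraries, aligned trimmed 50 bp reads to GRCh38 with HISAT2 2.1.0, removed reads that did not map uniquely, and deposited raw counts per Ensembl gene. The counting program, the annotation, and the use of strand are not given in the sources used here. Samples were grouped by title. The members, lists, and tests were chosen with earlier results of these data known. P-values measure the spread between pools of clones, which among the knockout pools also includes the difference in sgRNA.

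Genes were kept with filterByExpr (minimum count 10), normalized with TMM, and tested with edgeR 4.0.16 in R 4.3.3 (quasi-likelihood test, condition alone, all 5 libraries, Benjamini-Hochberg adjustment over 14391 genes). Symbols come from GENCODE release 44 (27211 of 27328 genes), promoter windows from RefSeq. Alternatives used DESeq2 1.42.0, limma 3.58.1, and mgcv 1.9.3. Subunit genes are named, except 1 that enters the counts and medians but is not reported here, with the standard error and adjusted p for those called, and of the other lists the genes called. In counts simulated for 14391 genes, of which 200 changed 4-fold, 60% of the changed and 9 unchanged genes were called, and at a 2-fold change 0% of the changed genes were. At these depths 3 counts correspond to 0.389 to 0.938 CPM (counting error only).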

Additional observations from a re-analysis of the deposited data

How the results depend on the processing

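With 2 control and 3 knockout pools, single libraries decided calls. Genes with few counts, such as *POLR2M* and *TAF1C*, could not be fitted when at least 10 counts were required in every library. Where a control pool was left out, the lone control was assumed to vary like the other libraries. The cause of the changes listed here was not tested.

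With offsets for GC content and length, 3 subunit genes were called higher, where 562 of all 14391 tested genes were. The median log2-fold change of the subunit genes was 0.20 with library size alone, 0.52 without a filter on low counts, and 0.22 with the GC and length offsets. For Pol III genes it was 0.21, 0.51, and 0.18 in the same order, 0.43 when 10 counts were needed in every library, and 0.26 with thinned libraries. For Pol I genes it was −0.17 with the GC and length offsets. The median of all genes was −0.17 with library size alone.

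Of the Pol I and Pol III initiation factors, 4 were called by DESeq2 and 1 each by limma-voom, with DESeq2 size factors in edgeR, and with at least 10 counts in every library, and their median was −0.25 with library size alone and −0.0047 without the filter. Of the Pol II general factors, DESeq2 called 2, no filter 1, and the GC and length offsets 2. Over all genes, DESeq2 called 1019 of 14391 higher and 338 lower. Limma-voom called 510 of 14391 higher and 124 lower, and edgeR with DESeq2 size factors 564 and 146. With at least 10 counts in every library, 488 of 10734 were called higher and 113 lower. Without the filter 1173 of 27328 were called higher and 201 lower, and with the offsets 562 of 14391 and 346. Of the pausing and elongation genes, 1 was called without the filter, and their median was −0.10 with library size alone, 0.19 without the filter, and −0.10 with the GC and length offsets. Of the assembly factors, DESeq2, no filter, and 10 counts in every library called 1 each, and their median was −0.13 with the GC and length offsets.

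The log2-fold change turned its sign for *POLR1G* in limma-voom (−0.092) and with GC and length offsets (−0.070), for *POLR2J* and *POLR2K* with library size alone (−0.015 and −0.10) and with the offsets (both −0.15), and for *POLR3A* without the filter (0.040).

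Pool numbers 1 and 2 occur in both groups, but the labels do not say that they mark shared handling, so the replicate block was only an alternative. The correlation of the differences between pools 1 and 2 across groups was 0.17. Pool number 3 occurs only in the knockout, so under the block knockout pool 3 did not inform the fold changes. The block called 6 subunit genes and 2 Pol II general factors, where 894 of all 14391 tested genes were called higher and 200 lower. The medians were −0.21 for Pol I genes and 0.25 for assembly factors. The block with GC and length offsets called 1 Pol II general factor, with medians of −0.37 for Pol I, 0.24 for Pol III, and −0.087 for pausing and elongation genes. *POLR1G* was at −0.26 with the block and at −0.46 with block and offsets, where *POLR2J* was at −0.11 and *POLR2K* at −0.050.

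Leaving out each library in turn gave 0 to 7 subunit genes called higher and 0 to 1 called lower. The median ranged from 0.25 to 0.47 for all subunit genes, −0.38 to 1.25 for those common to all enzymes, −0.17 to 0.13 for Pol I, 0.35 to 0.92 for Pol II, 0.65 to 2.40 for *POLR2M*, and 0.15 to 0.41 for Pol III. Medians were −0.15 to 0.027 for initiation factors and −0.19 to 0.15 for Pol II general factors. They were 0.017 to 0.17 for pausing and elongation genes and −0.036 to 0.37 for assembly factors. With 1 knockout pool left out, 0 to 1 initiation factors and 0 genes of the other 3 lists were called, beside the counts over all tested genes given above. Log2-fold changes ranged from −0.36 to 0.10 for *POLR1E*, −0.14 to 0.58 for *POLR1G*, −0.0020 to 0.35 for *POLR2J*, −1.20 to 0.28 for *POLR3C*, −0.81 to 0.078 for *POLR3D*, −0.24 to 2.03 for *POLR3GL*, −1.39 to 1.36 for *POLR2E*, −0.44 to 0.63 for *POLR2K*, and −1.04 to 0.16 for *MTSS1*.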

Other observations

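Several entries named after subunit genes were counted as well. *POLR2J4*, a long noncoding RNA gene related to *POLR2J*, was at 5.32 and 4.77 CPM in control and at 2.21, 1.99, and 2.44 CPM in knockout pools. Every knockout pool was lower, but it was not called (log2-fold change −1.18, adjusted p = 0.173). *POLR1HASP*, which overlaps *POLR1H* on the opposite strand, had 28 and 16 counts in control and 65, 63, and 35 counts in knockout libraries (log2-fold change 0.35). The pseudogene *POLR3GP2* had 0 counts in both control libraries and 7, 3, and 5 counts in the knockout libraries, which were also the deeper ones. *RRN3P3*, a relative of *RRN3*, had 2 and 12 counts in control and 62, 40, and 43 counts in knockout libraries.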
